A study of Mus musculus with 33 samples.

Results

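Endothelial cells line the sinusoids and arterioles of bone marrow (BM), hold blood cells in the tissue through adhesion molecules and control clotting at the vessel wall. The 8 endothelial genes described here were chosen by probe name on the NanoString nCounter mouse panel: Cdh5, Pecam1, Icam1, Icam2, Vwf, Thbd, Eng and Nrp1. All 8 were present among the 750 endogenous genes of the panel, and all 8 were among the 655 genes that passed the filter on low counts, which asked for a count above background in at least 2 lanes. Several of them are also made by blood cells: Pecam1 and Icam2 by leukocytes and platelets, Vwf by megakaryocytes, Thbd by myeloid cells, Eng by stem cells and macrophages, and Nrp1 by dendritic and regulatory T cells.

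Total BM RNA was taken from 33 female C57BL/6 mice aged 6 to 8 weeks, 1 nCounter lane per mouse. Mice received venetoclax, an inhibitor of BCL2, or ruxolitinib, an inhibitor of JAK1 and JAK2, or the vehicle of either drug by oral gavage for 2 days, and BM was collected 1, 3 or 7 days after treatment. Each drug group held 3 mice and each vehicle group 2, and 3 untreated mice completed the 13 groups. The study's methods give 100 mg/kg venetoclax once daily and 180 mg/kg ruxolitinib 2 times a day, while the series text gives the same figures per ml. The vehicle of venetoclax was a mixture of Phosal, polyethylene glycol and ethanol, and that of ruxolitinib held DMSO and polyethylene glycol in water. Values below are normalised counts, that is, counts scaled per lane on housekeeping genes, and SD is the spread between mice.

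The lanes held from 18056 to 466096 endogenous counts, with a median of 158944, and 1 count was worth 0.871 normalised counts in the median lane. Lanes of 1 day shared 1 run, and each run also held 1 untreated mouse, and the effects of day and of run cannot be told apart. The run of the day 3 mice carries the name Day 2 in its header, and the labels' day 3 is used here. The first venetoclax lane of day 1 (18056 counts) and the first ruxolitinib lane of day 3 were shallow, with fewer than 30000 counts, and in them 1 count was worth over 5 normalised counts (5.55 in the shallower).

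The endothelial label was checked first against the probes that define the lineage. Cdh5, VE-cadherin of the endothelial junction, gave raw counts of 1 to 15 and was above the background of negative probes in 19 of 33 lanes. Of the other defining genes, the VEGF receptor Kdr was above background in 12 lanes, the angiopoietin receptor Tek in 3 and Tie1 in 23, and none of the 3 had a raw count over 21. Sele, which endothelial cells make on activation, the lymphatic marker Lyve1 and the junction gene Jam3 were above background in 0 lanes. The haematopoietic markers Ptprc, Spn and Itgb2 were above background in all 33 lanes, with mean normalised counts of 383, 123 and 335. The defining endothelial probes were thus close to the detection limit in whole marrow RNA, whereas the 7 members besides Cdh5 were above background in 27 to 33 lanes. In such bulk RNA fewer cells of a type and less RNA per cell cannot be told apart.

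Across the 13 groups, 2 of the 8 genes differed by the overall edgeR quasi-likelihood test with Benjamini-Hochberg adjustment, Thbd (adjusted p = 2.05e-05) and Nrp1 (adjusted p = 0.000231). The test called 36.3% of all 655 genes. Adjusted p lay between 0.212 and 0.917 for the other 6 members. The highest group mean exceeded the lowest 7.87-fold for Thbd, 3.72-fold for Nrp1, 3.61-fold for Cdh5, 2.63-fold for Eng and 2.49-fold for Icam1. For Pecam1, Vwf and Icam2 the same ratio was 1.83, 1.82 and 1.56. When groups were ordered by level, 1 of 12 steps between neighbours exceeded the pooled SD within groups for Thbd and 1 for Nrp1, both between the 4 groups of day 7 and the rest. No step between neighbouring groups exceeded that spread for the other 6 genes.

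**Figure D1:**
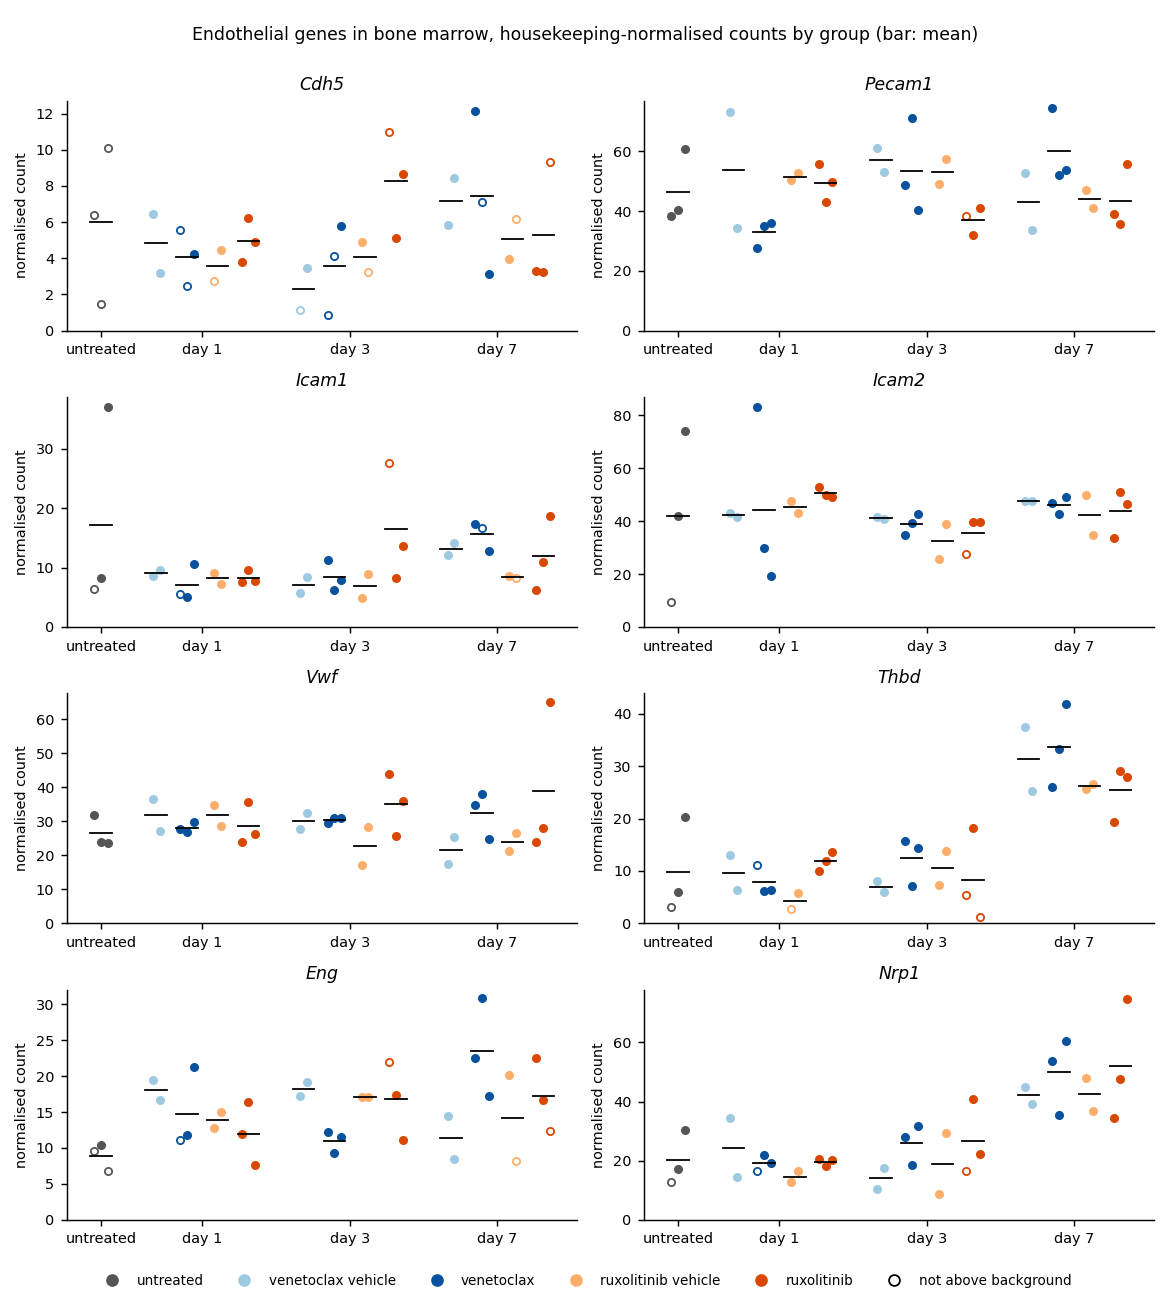
Normalised counts (y axis, linear from 0) of the 8 endothelial genes in each of the 33 lanes by group and day (x axis), with 1 point per mouse and a bar at the group mean; open points were not above background. The means of all 4 groups of day 7 lie above those of the other groups for Thbd and Nrp1, whereas no such step is seen for the other 6 genes.

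No endothelial gene passed the threshold in a comparison of either drug with its vehicle. With edgeR, 0 of 8 genes had an adjusted p under 0.05 for venetoclax on any single day or in the mean of the 3 days. Of all genes, day 1 called 0.153%, day 3 called 0%, day 7 called 0.153% and the mean 2.9%. For ruxolitinib the count was also 0 of 8 in each, with 2.75% (0.763% higher), 0.153%, 0.153% and 1.22% of all genes called. At an unadjusted p under 0.05 there were 2 single-day results among the 8 comparisons of a drug with its vehicle, Eng under venetoclax on day 3 and Thbd under ruxolitinib on day 1. Of all 655 genes 70 and 89 were under that level in these comparisons, so that 1 of 8 members was near the share of the panel. limma and DESeq2 also called 0 of 8 genes in each of these comparisons. The 2 drugs' changes were compared with each other on each day and over the 3 days, and again 0 of 8 genes passed, against 1.68%, 0.153%, 0.305% and 0.611% of all genes. In these 4 comparisons 1 result had an unadjusted p under 0.05, Thbd on day 1, where 88 of all 655 genes had one, and limma and DESeq2 called 0 of 8.

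Cdh5 joins endothelial cells to each other through homophilic binding. Its group means ranged from 2.30 ± 1.62 (SD, n = 2) in the venetoclax vehicle of day 3 to 8.28 ± 2.95 (SD, n = 3) under ruxolitinib on day 3. Ruxolitinib lanes of day 3 read 11.01, 5.14 and 8.68 against 4.90 and 3.24 in vehicle. These groups did not overlap, as was the case for 7.63% of all genes in that direction, and the lane at 11.01 was the shallow one, with 2 raw counts and not above background. The log2 fold change was 0.77 (SE 0.71, adjusted p = 0.998 by edgeR), so that no difference was detectable at these counts. Over the 3 days Cdh5 differed by -0.08 (95% interval -0.95 to 0.78) under venetoclax and by 0.30 (-0.46 to 1.06) under ruxolitinib on the log2 scale.

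Pecam1 (CD31) is an adhesion molecule of endothelial junctions, leukocytes and platelets. It was lowest after venetoclax on day 1, with lanes at 27.7, 34.9 and 36.1 against 73.4 and 34.3 in vehicle. The vehicle mice alone thus spanned more than the distance between the groups, and 1 of them lay inside the venetoclax range. The log2 fold change was -0.63 (SE 0.31, adjusted p = 0.471 by edgeR). On day 3 ruxolitinib lanes read 38.5, 32.0 and 40.9 and vehicle lanes 49.0 and 57.6. The lane at 38.5 was the shallow one, with 7 raw counts and not above background. All 3 ruxolitinib lanes were below both vehicle mice, which held for 7.94% of all genes. The log2 fold change of -0.58 (SE 0.30) did not pass the test (adjusted p = 0.997 by edgeR). The highest group mean was that of venetoclax on day 7, at 60.2 ± 12.6 (SD, n = 3).

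Icam1 and Icam2 are ligands of the leukocyte integrin LFA-1. Icam1 is induced on endothelium by interferon gamma through JAK kinases and by NF-kB, whereas Icam2 is constitutive. Icam1 is a member with a known route through the kinases that ruxolitinib inhibits, and its promoter is shown for that reason. RefSeq sequence of the 250 bases before its start on GRCm38.p6 (chr9:21015690-21015939, plus strand) is given below, in lower case with 1 match to TTCNNNGAA in capitals. This palindrome is the general form of a STAT element and reads the same on both strands. The match, TTCCCGGAA, lies 42 to 34 bases before the start. The pattern TTCNNNGAA occurs in 7.02% of 32851 promoter windows of that length, and the windows of Eng and Nrp1, the other members in the sequence table, held 0 matches.
Icam1 promoter: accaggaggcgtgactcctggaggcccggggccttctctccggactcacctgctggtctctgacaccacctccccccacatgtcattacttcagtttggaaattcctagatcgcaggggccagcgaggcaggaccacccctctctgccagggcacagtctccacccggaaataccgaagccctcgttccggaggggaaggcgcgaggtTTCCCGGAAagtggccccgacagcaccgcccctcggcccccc

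Icam1 lanes under ruxolitinib on day 1 read 7.53, 9.62 and 7.66 and their vehicle lanes 9.16 and 7.19. The groups overlapped, and the log2 fold change was 0.07 (95% interval -0.84 to 0.99, adjusted p = 0.948 by edgeR). A decrease of more than 0.84 on the log2 scale was thus outside the interval, and smaller changes were not detectable. Over the 3 days Icam1 differed by 0.31 (-0.26 to 0.88) under ruxolitinib and by -0.04 (-0.65 to 0.58) under venetoclax. The highest group mean of Icam1, 17.2 ± 17.2 (SD, n = 3) in untreated mice, rested on the mouse of the day 7 run at 37.1, beside 6.40 and 8.22 in the other untreated mice. Vehicle groups were 0.64 lower than untreated mice on the log2 scale in the fit (log2 fold change -0.64, SE 0.39, adjusted p = 0.585 by edgeR), and without that mouse the value was 0.14.

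Icam2 had the smallest ratio of highest to lowest group mean among the 8 genes. Its means ran from 32.3 ± 9.34 (SD, n = 2) in the ruxolitinib vehicle of day 3 to 50.6 ± 1.88 (SD, n = 3) under ruxolitinib on day 1. On day 1 the ruxolitinib lanes, at 52.7, 49.8 and 49.2, lay above vehicle at 47.6 and 43.1, which 27.6% of all genes also did. The difference was small (log2 fold change 0.17, SE 0.31, adjusted p = 0.867 by edgeR). Under venetoclax on day 1 the lanes read 83.2, 29.9 and 19.1 against 43.2 and 41.4, and the highest of them was the shallow lane with 15 raw counts.

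Vwf carries platelets to exposed collagen and is stored by endothelial cells and megakaryocytes. It was the only member above background in all 33 lanes. Its group means ran from 21.4 ± 5.44 (SD, n = 2) in the venetoclax vehicle of day 7 to 38.97 ± 22.8 (SD, n = 3) under ruxolitinib on day 7, where lanes read 23.8, 27.9 and 65.2. The last of these lanes set the mean and its spread. Over the 3 days the log2 fold change was 0.15 (95% interval -0.24 to 0.53) under venetoclax and 0.25 (-0.11 to 0.62) under ruxolitinib. Vehicle mice of day 7 read 17.6, 25.3, 21.4 and 26.6, and those of day 1 read 36.7, 27.1, 34.8 and 28.8. These lanes did not overlap, as for 11.1% of all genes in that direction, and the log2 fold change of -0.58 (SE 0.24) had an adjusted p of 0.0728 by edgeR. DESeq2 called it, and so did edgeR under TMM scaling, scaling by all housekeeping probes or with only the groups compared in the fit. The other 8 of 12 alternatives did not call it, and the value ranged from -0.78 to -0.34 over the alternatives. With single mice left out, the adjusted p by edgeR ran from 0.0623 to 0.456.

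Thbd encodes thrombomodulin, the thrombin receptor that turns on the protein C anticoagulant pathway. Under ruxolitinib on day 1 its lanes read 10.0, 11.9 and 13.7, against 2.75 and 5.82 in vehicle. The vehicle lane at 2.75 rested on 3 raw counts and was not above background. All ruxolitinib mice lay above both vehicle mice, as for 27.6% of all genes. The log2 fold change of 1.30 (SE 0.53) had an unadjusted p of 0.0153 and an adjusted p of 0.233 by edgeR, and the adjusted p was 0.0318 when only those 2 groups were fitted. The vehicle of venetoclax read 12.9 and 6.37 on the same day, so that the ruxolitinib lanes did not stand above all vehicle lanes of day 1. With both vehicles as control the log2 fold change was 0.83. The change under venetoclax minus that under ruxolitinib on day 1 was -1.76 on the log2 scale (SE 0.84, adjusted p = 0.335 by edgeR).

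On day 3 Thbd lanes read 15.7, 7.21 and 14.4 under venetoclax and 8.07 and 5.89 in vehicle. The ranges overlapped, and the log2 fold change was 0.94 (SE 0.54, adjusted p = 0.528 by edgeR). Ruxolitinib lanes of day 3 were spread wider than the other groups of that day, at 5.50, 18.2 and 1.24, of which the first and the last rested on 1 raw count each. The mean change over the 3 days, 0.46 (95% interval -0.11 to 1.03) under ruxolitinib, became -0.40 without the lane at 18.2. Under venetoclax it was 0.18 (-0.45 to 0.81).

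Eng is endoglin, a co-receptor for TGF-beta and BMP ligands on endothelium. Under venetoclax on day 3 its lanes read 12.2, 9.27 and 11.5, below 17.3 and 19.2 in vehicle. On day 7 the order was the other way, with 22.6, 30.8 and 17.2 under venetoclax and 14.5 and 8.43 in vehicle. Groups apart like these were found in 13.1% of all genes on day 3 (lower) and 6.56% on day 7 (higher). The log2 fold changes were -0.73 (SE 0.35, unadjusted p = 0.0431, adjusted p = 0.448 by edgeR) and 0.66 (SE 0.36, adjusted p = 0.999 by edgeR), and over the 3 days they came to -0.14 (95% interval -0.57 to 0.29). Under ruxolitinib the mean over the 3 days was -0.08 (-0.48 to 0.32).

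Untreated mice had the lowest group mean of Eng, 8.93 ± 1.95 (SD, n = 3), with single values of 9.60, 10.5 and 6.74 in the runs of days 1, 3 and 7. The 4 vehicle lanes of the same runs ranged from 12.8 to 19.4, from 17.03 to 19.2 and from 8.20 to 20.1. Every vehicle lane thus lay above the untreated lane of its run, which was so for 0.458% of all genes. In the day 7 run this rested on few counts. The untreated lane held 2 raw counts, and the vehicle lanes at 8.20 and 8.43 held 4 and 3. The vehicle lane at 8.20 was not above background. In the fit, Eng was 0.75 higher in vehicle groups on the log2 scale (SE 0.36, unadjusted p = 0.0356, adjusted p = 0.398 by edgeR), and 2 of the 3 untreated values were not above background. Of the 8 members 0 passed that comparison, as did 0% of all genes. Eng alone of the members had an unadjusted p under 0.05, as did 75 of all 655 genes, and limma and DESeq2 called 0 members.

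Nrp1 is neuropilin 1, a co-receptor for VEGF-A and class 3 semaphorins. On day 3 venetoclax lanes read 27.9, 18.5 and 31.7 and vehicle lanes 10.4 and 17.7. The venetoclax mice all lay above, as for 13% of all genes, and the log2 fold change was 0.82 (SE 0.41, adjusted p = 0.455 by edgeR). On day 1 the lanes under ruxolitinib read 20.7, 18.1 and 20.2 against 12.8 and 16.4, a log2 fold change of 0.38 (SE 0.38, adjusted p = 0.701 by edgeR). Over the 3 days Nrp1 differed by 0.30 (95% interval -0.18 to 0.78) under venetoclax and by 0.37 (-0.08 to 0.82) under ruxolitinib, and neither interval excluded 0.

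**Figure D2:**
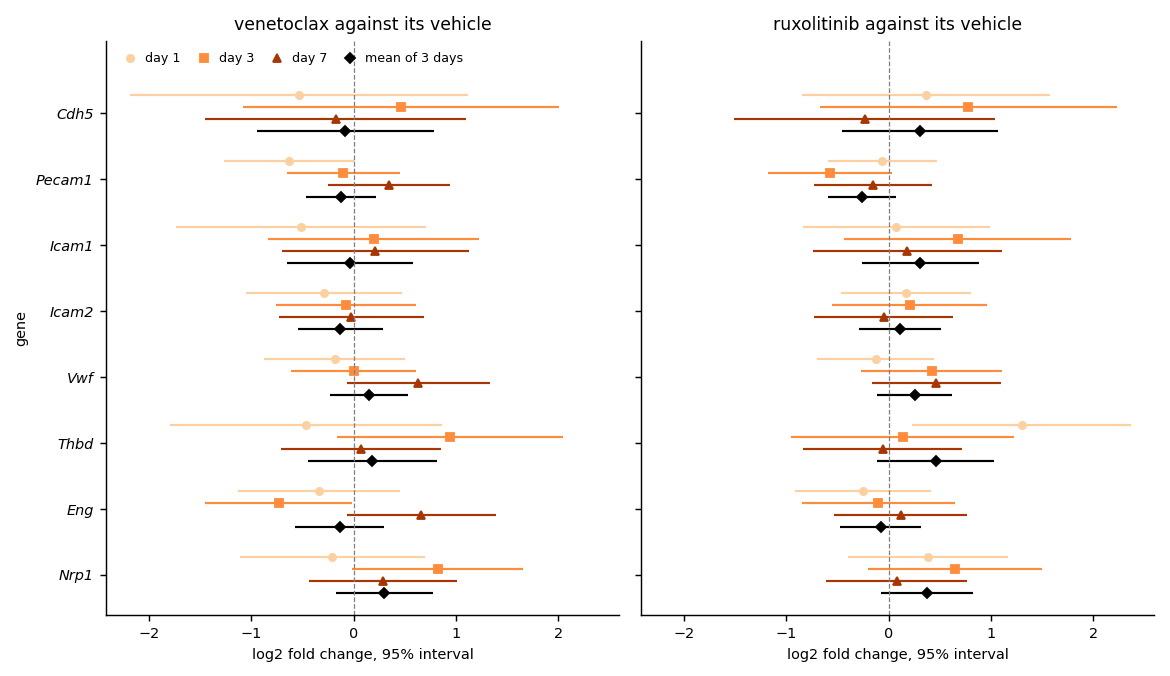
Log2 fold change (x axis, with 95% intervals) of each endothelial gene under venetoclax (left) and ruxolitinib (right) against its own vehicle, by day and in the mean of the 3 days. Only the intervals of Eng under venetoclax on day 3 (-1.45 to -0.02) and of Thbd under ruxolitinib on day 1 (0.23 to 2.37) leave out 0, and neither passed the adjustment over all genes.

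In the mean of the 3 days, 9 drug mice stood against 6 vehicle mice. An exact two-sided permutation test of the labels within days, over 1000 arrangements with a smallest possible p of 0.001, gave p from 0.266 (Nrp1) to 0.968 (Eng) for venetoclax. For ruxolitinib the exact permutation p ran from 0.12 (Pecam1) to 0.963 (Eng). Adjusted over all genes tested, these values were 0.518 or higher for each member. The members' median log2 fold change was -0.06 under venetoclax, against 0.04 over all genes, and 0.28 under ruxolitinib, against 0.04.

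On day 1 after venetoclax, all 8 members had a log2 fold change below 0, from -0.63 (Pecam1) to -0.18 (Vwf), with a median of -0.40 against -0.02 over all genes. None of these passed the test, and the 8 values share the same 5 lanes, including the shallow one. Without the shallow lanes all 8 stayed below 0, with a median of -0.53 against -0.11. With both vehicles of the day as control 6 of 8 were below 0, with a median of -0.26 against -0.04 over all genes. Against untreated mice 5 of 8 were below 0, and the members' median of -0.26 was no longer below that of all genes (-0.32). The 3 megakaryocyte and platelet markers tested, Itga2b, Itgb3 and Ppbp, were also all below 0 on day 1 against the vehicle of venetoclax (median -0.64), as were the 7 T and NK cell markers tested (median -0.34), and 0 of either list passed. Their part in the members' values was not tested. The other endothelial and vessel genes lay the other way, with 16 of 24 above 0 (median 0.10), as did the monocyte and macrophage genes, with 7 of 10 above 0 (median 0.24). The 4 defining endothelial genes, Cdh5 among them, were split, with 2 above 0 and a median of -0.17. The direction on day 1 was not that of the later days: on day 3 5 of 8 members were above 0, and on day 7 6 of 8, with a median of 0.25 against -0.01 over all genes.

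The level of Thbd and Nrp1 on day 7 was the clearest pattern among the 8 genes, and it was present in mice without drug. Thbd read 37.5 and 25.3 in the venetoclax vehicle and 25.6 and 26.6 in the ruxolitinib vehicle of day 7. In the vehicle mice of day 1 it read 12.9, 6.37, 2.75 and 5.82. The log2 fold change of day 7 over day 1 in vehicle groups was 2.15 (SE 0.38, adjusted p = 0.00014 by edgeR). Nrp1 read 44.9, 39.3, 47.9 and 36.9 in the vehicle mice of day 7 and 34.5, 14.3, 12.8 and 16.4 in those of day 1, a log2 fold change of 1.21 (SE 0.29, adjusted p = 0.00207 by edgeR). With limma after background subtraction the call of Nrp1 was lost (adjusted p = 0.109) at a log2 fold change of 1.201. Lanes of both genes were fully apart, as were those of 22.6% of all genes. These were 2 of the 8 members called, both higher, against 30.1% of all genes called and 20% called higher, so the share of members was near that of the panel. Between day 3 and day 1 of the vehicle groups 0 of 8 members were called with edgeR, limma or DESeq2, 0 had an unadjusted p under 0.05, and 0% of all genes were called.

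Drug mice showed the same levels. In the last run Thbd read 26.1, 33.2 and 41.8 under venetoclax and 19.3, 29.1 and 27.96 under ruxolitinib. Nrp1 read 53.9, 35.6 and 60.6 under venetoclax and 34.4, 47.6 and 74.5 under ruxolitinib. Within that day neither gene passed the test between drug and vehicle, with log2 fold changes of 0.07 (SE 0.39) and -0.06 (SE 0.38) for Thbd and of 0.29 (SE 0.36) and 0.08 (SE 0.34) for Nrp1 under venetoclax and ruxolitinib. Over all 12 drug and vehicle groups, day 7 exceeded days 1 and 3 by 1.74 (SE 0.20, adjusted p = 1.06e-08 by edgeR) for Thbd and by 1.16 (SE 0.16, adjusted p = 3.04e-07 by edgeR) for Nrp1 on the log2 scale. This comparison was added after the data were seen and called 47.3% of all genes, 29.9% higher and 17.4% lower. The median log2 difference of all genes there was 0.08.

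The untreated mice, which had no treatment day, were split over the same runs. The untreated mouse of the day 7 run read 20.2 for Thbd (6 raw counts). Those of the runs of days 1 and 3 read 3.20 (1 raw count, not above background) and 5.98 (8 raw counts). For Nrp1 the untreated mouse of the day 7 run read 30.3 (9 raw counts), below all 10 treated lanes of that run (34.4 to 74.5). The other untreated mice read 12.8 (4 raw counts, not above background) and 17.2 for Nrp1. With 1 untreated mouse a run, these values rest on few counts. All 11 lanes of the day 7 run had more Thbd (19.3 to 41.8) than any of the 22 lanes of the other runs (1.24 to 18.2), which was so for 1.98% of all genes. Nrp1 lanes of the other runs reached 40.8 and overlapped with the day 7 run. With run and treatment in 1 additive model over all lanes, the run of day 7 was 1.64 higher for Thbd (SE 0.19, adjusted p = 2.06e-09 by edgeR), 1.13 for Nrp1 (SE 0.15, adjusted p = 5.87e-08 by edgeR) and 0.54 for Icam1 (SE 0.19, adjusted p = 0.0169 by edgeR). These were 3 of the 8 members, against 30.1% of all genes called higher. This model holds the untreated lane of Icam1 at 37.1, and among drug and vehicle groups alone Icam1 did not pass, at 0.43 for day 7 against days 1 and 3 (SE 0.21, adjusted p = 0.0903 by edgeR).

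**Figure D3:**
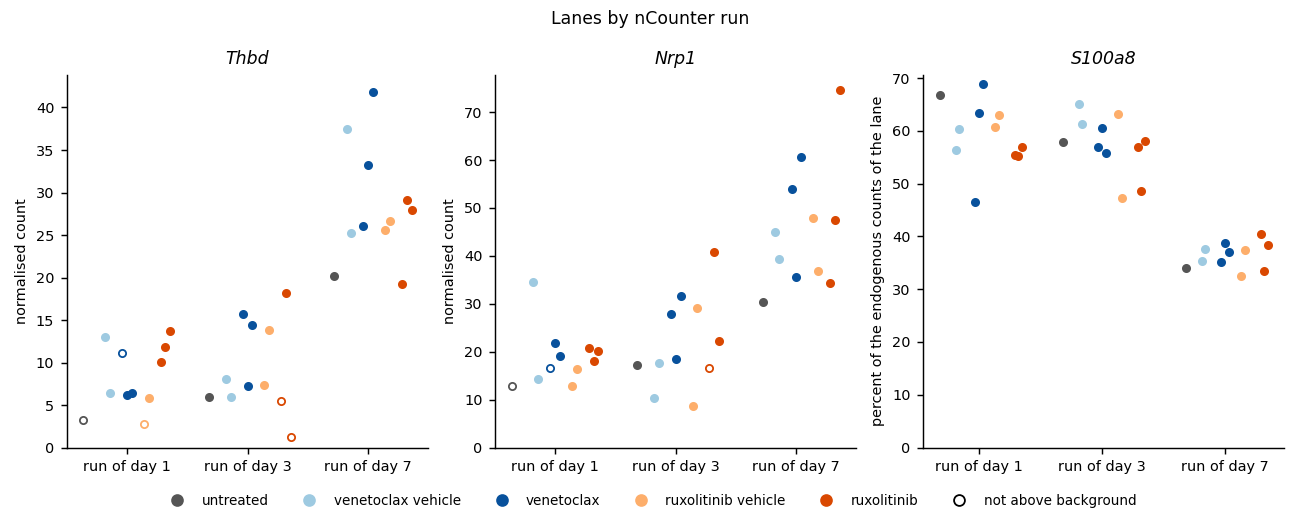
Normalised counts of Thbd and Nrp1 (left and centre, y axis) and the share of S100a8 among a lane's endogenous counts (right, percent) in each lane by nCounter run (x axis), with 1 point per mouse. The untreated mouse of the day 7 run, at 20.2 for Thbd, lies with the treated mice of that run. For Nrp1, at 30.3, it lies below them (34.4 to 74.5). The share of S100a8 is lower in all lanes of that run.

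Other features of the lanes moved with day 7. S100a8, a neutrophil gene and the most abundant probe, took a median of 58.7%, 57.5% and 37.2% of the endogenous counts of treated lanes in the runs of days 1, 3 and 7, and 66.7%, 57.9% and 33.9% in their untreated lanes. Among the vehicle groups, day 7 against day 1, the neutrophil list had 5 of 8 genes higher and 2 lower, among them Elane (log2 fold change 2.35, SE 0.44), Mpo (1.89, SE 0.34) and Lcn2 (1.71, SE 0.37) higher and S100a8 (-0.998, SE 0.27) lower. Elane and Mpo are granule genes of early neutrophil precursors. Of the monocyte and macrophage list 5 of 10 were higher and 0 lower, including Cd68 (1.35, SE 0.28). Of the megakaryocyte list 1 of 3, Itgb3, was lower (-1.14, SE 0.24). In this comparison 20% of all genes were called higher and 10.1% lower. Summed levels of the 10 monocyte and macrophage genes ranged from 449 to 683 in treated lanes of days 1 and 3 and from 625 to 829 on day 7. The 4 defining endothelial genes, Cdh5, Kdr, Tek and Tie1, summed to 10.1 to 40.4 on day 7 and to 11.3 to 38.8 on days 1 and 3, and 0 of 4 were called. The treated medians of this sum were 15.8, 14.2 and 17.7 in the runs of days 1, 3 and 7. These probes were close to the detection limit, so neither a change nor its absence can be read from the sums. The part of these cell types in the levels of Thbd and Nrp1 was not tested.

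Eng was examined in the same way. In the drug groups of day 7 it was 0.59 higher than on days 1 and 3 on the log2 scale (SE 0.19, adjusted p = 0.0155 by edgeR), whereas vehicle mice of day 7 read 14.5, 8.43, 20.1 and 8.20 against 19.4, 16.7, 12.8 and 15.1 on day 1. This contrast called 3 of 8 members, Thbd, Nrp1 and Eng, beside 32.8% of all genes. The adjusted p of Eng exceeded the threshold under 5 of 12 alternatives and without the second venetoclax mouse of day 1 or the first ruxolitinib mouse of day 7. It reached 0.0826 with a mouse left out and 0.172 with limma after background subtraction. The step of the drug groups exceeded that of the vehicle groups by 0.75 (SE 0.30, unadjusted p = 0.0175), but the adjusted p was 0.908 by edgeR. Of the 8 members 0 passed that test of the difference, as did 0% of all genes, and limma and DESeq2 also called 0. Eng was the 1 member with an unadjusted p under 0.05 there, beside 32 of all genes.

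**Figure D4:**
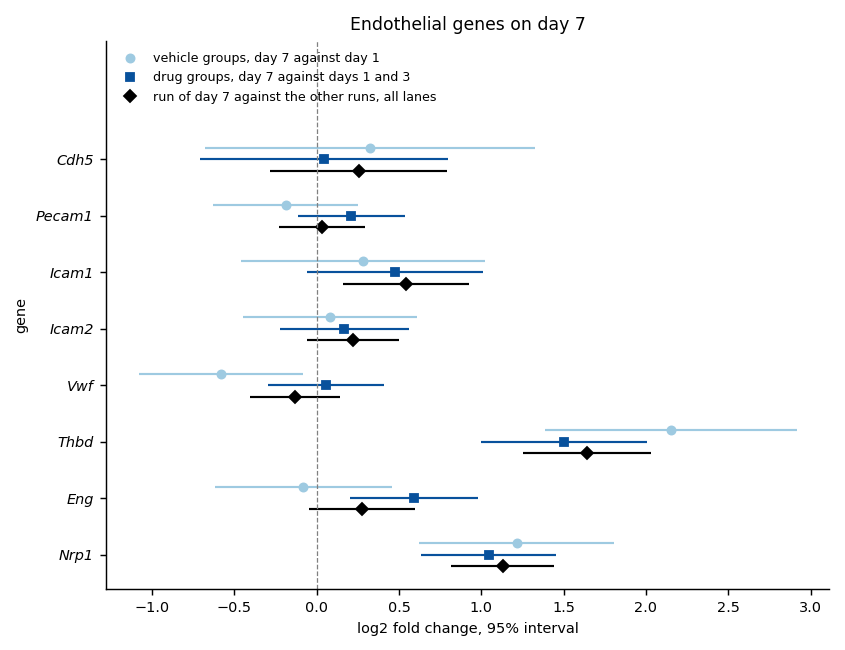
Log2 fold change (x axis, with 95% intervals) of the 8 endothelial genes on day 7 in vehicle groups against day 1, in drug groups against days 1 and 3, and in the run of day 7 against the other runs over all lanes. Thbd and Nrp1 lie to the right of 0 in each, while Cdh5, Pecam1 and Icam2 span 0 in each.

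Partners and neighbours of the members on the panel were examined as lists. Of 28 other endothelial and vessel genes on the panel 24 were tested, and under ruxolitinib 1 was called, Cxcl12, a chemokine made by perivascular stromal and endothelial cells. It rose on day 1 (log2 fold change 1.94, SE 0.41, adjusted p = 0.00533 by edgeR) and in the mean of the 3 days (1.12, SE 0.24, adjusted p = 0.0105 by edgeR). Under venetoclax 0 of 24 were called, and the mean over the 3 days was 0.40 (SE 0.27) for Cxcl12, 0.44 (SE 0.23) for Vegfa, a growth factor of endothelium, and 0.39 (SE 0.23) for the matrix gene Fn1. Under ruxolitinib the next genes of this list by size were Cd34 (0.50, SE 0.20) and Vcam1 (0.37, SE 0.19), neither of which passed. The list's median over the 3 days was 0.08 under venetoclax and 0.16 under ruxolitinib, beside 0.04 over all genes for each.

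The integrin chains that bind ICAMs, Itgal, Itgam, Itgax and Itgb2, had 0 of 4 genes called for either drug in the mean of the 3 days, with medians of 0.17 and 0.28 for venetoclax and ruxolitinib. The 7 tested TGF-beta ligands, receptors and SMADs that signal with endoglin had 0 called, with medians of 0.03 and 0.06. Vegfa and Vegfc, the 2 neuropilin ligands on the panel, had 0 of 2 called. Among 16 tested NF-kB and cytokine inducible genes, Rela, a subunit of NF-kB, fell by 0.48 on the log2 scale in the mean of the 3 days of venetoclax (SE 0.14, adjusted p = 0.0417 by edgeR). Cxcl10, an interferon-inducible chemokine, fell by 1.87 on day 1 of ruxolitinib (SE 0.55, adjusted p = 0.0426 by edgeR), on the day when Icam1 differed by 0.07.

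On day 7 of the vehicle groups, against day 1, 6 of the 24 other vessel genes were higher and 2 lower, shares near the 20% and 10.1% of all genes. Higher were Thy1 (log2 fold change 1.56, SE 0.27), Selplg (1.39, SE 0.30), Cd34 (1.36, SE 0.26), Fn1 (1.22, SE 0.31), Hif1a (1.07, SE 0.24) and Vcam1 (1.04, SE 0.24). Icam4, an adhesion molecule of red cells (-1.19, SE 0.24), and Cd99 (-1.03, SE 0.26) were lower. Itgal (1.12, SE 0.27) and Itgb2 (0.71, SE 0.18), which form LFA-1, and Tgfb1 (0.53, SE 0.17), Smad2 (1.41, SE 0.34) and Smad4 (0.83, SE 0.23) were also higher. These were 2 of the 4 integrin chains and 3 of the 7 TGF-beta genes tested.

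Members varied largely apart from each other. Over the 33 lanes Pearson's r of log2 normalised counts was 0.81 for Thbd and Nrp1 and 0.51 after run means were removed. The other 27 pairs lay between -0.16 and 0.56, the highest being Cdh5 with Icam1, both at few counts. After run means were removed they lay between -0.17 and 0.51, and Thbd with Nrp1 no longer stood apart from Cdh5 with Icam1 (0.51) or Icam1 with Vwf (0.48). These r are descriptions over lanes that share runs and depth.

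Among 358 genes above background in at least 30 lanes, those most like Thbd by r were Stat3 (0.88), Cxcr2 (0.87) and Lcn2 (0.86), and those most like Nrp1 were Lamp2 (0.93), Clec4a2 (0.93) and Elane (0.92). With run means removed these r were 0.62 to 0.66 for Thbd and 0.80 to 0.85 for Nrp1. Cxcr2, Lcn2 and Elane are neutrophil genes, and Clec4a2 is a myeloid receptor. Icam2 was most like Jak1 (0.80), Map2k4 (0.80) and Cd48 (0.79), and Icam1 most like Spn (0.73) and Tlr8 (0.70). Vwf was most like the platelet chemokine gene Ppbp (0.52), Nup107 (0.47) and the megakaryocyte integrin Itga2b (0.41). For the remaining 3 genes the highest r was 0.68 for Cdh5 with Spn, followed by Rps6 (0.54) and Mef2c (0.54). It was 0.59 for Pecam1 with Il10ra, then Blnk (0.54) and Osm (0.53), and 0.56 for Eng with Mapk8, then Notch1 (0.34) and Bcl10 (0.32).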

How the data were processed

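The authors extracted total BM RNA with the Qiagen RNeasy kit and hybridised it to a NanoString nCounter mouse panel, named PanCancer Immune Profiling in their methods and Immunology in the series text. The deposited files hold the raw count of each probe per lane, with 750 endogenous, 20 housekeeping, 6 positive and 8 negative probes. They named nCounter Advanced Analysis for normalisation, and those normalised values were not used here. Replicates are separate mice by the labels.

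Here lanes were scaled on 11 housekeeping probes (geometric mean), those above background in every lane. Background was the mean plus 2 SD of the negative probes. Tests with edgeR 4.0.16 covered the 655 endogenous genes that 2 or more lanes showed above it (R 4.3.3; quasi-likelihood, 13 group means, common dispersion 0.0406, 20 residual degrees of freedom), with Benjamini-Hochberg adjustment over all genes tested and a threshold of 0.05. The script was tested on simulated data. limma 3.58.1 (log2 of normalised count plus 1) and DESeq2 1.42.0 were alternatives. Correlations used log2 of normalised count plus 1. Named genes are the 8 members, the 3 genes most like each member, list genes called under a drug or among the 3 largest changes of a list, where the normalised count averaged 20 or more, and markers that moved with day 7. A gene that this rule selects is not reported here. Comparisons of day 3 with day 1 in vehicle groups, of day 7 over all treated or drug groups, of their step, and of runs over all lanes were added after the data were seen. The members and lists were chosen with earlier results of these data known. Promoters are from RefSeq. With 2 or 3 mice a group, precision is limited by the number of lanes and by low counts, and intervals cover the spread between mice.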

Additional observations from a re-analysis of the deposited data

How the results depend on the processing

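Counts of members called were compared under scaling by TMM, total counts, all or the 5 most stable housekeeping probes, other filters, tests and control groups, and with single mice left out. Of 19 such counts 14 stayed within 1.5 times under every such alternative, and leaving out 1 mouse moved none by over 1.5 times. Against untreated mice, which came from all 3 runs, 2 members (Thbd and Nrp1) were called for each drug on day 7. With only the groups compared in the fit, 1 was called on day 1 of ruxolitinib (Thbd). After background subtraction with limma, 1 (Thbd) was called for day 7 against day 1 of the vehicle groups. Under total count scaling, which moved the median of all genes on day 7 of the vehicle groups from 0.20 to 0.45 (TMM -0.01), 4 were called for day 7 of all treated groups (Eng and Icam1 added).

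Of 35 single values (log2 fold changes) 27 kept their direction under the alternatives, and the rest were changes near 0 or comparisons with untreated mice; the cause was not tested. Over the 3 days of venetoclax, Cdh5 turned to 0.040 (untreated control), 0.038 (limma) and 0.00033 (DESeq2), and Pecam1 to 0.087 and Eng to 0.63 with the untreated control. Icam1 turned to 0.033 (stable housekeeping), 0.10 (vehicles pooled), 0.046 (run as a block), 0.018 (limma), 0.030 (background subtraction) and 0.011 (DESeq2). Over the 3 days of ruxolitinib, Icam1 turned to -0.47 and Eng to 0.66 with the untreated control, and Eng to 0.0093 with limma. On day 1 of ruxolitinib Icam1 turned to -0.035 (vehicles pooled), -0.70 (untreated control), -0.030 (background subtraction) and -0.019 (DESeq2), and on day 3 of venetoclax Eng to 0.20 (untreated control). The mean count filter removed Cdh5 and gave no value for it.

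With single mice left out, 27 of 35 values kept their direction. The others ranged over the 3 days of venetoclax from -0.29 to 0.32 (Cdh5), -0.28 to 0.08149 (Pecam1), -0.15 to 0.13 (Icam1) and -0.23 to 0.081 (Eng), and over those of ruxolitinib from -0.40 to 0.73 (Thbd) and -0.18 to 0.28 (Eng). Icam1 ranged from -0.15 to 0.20 on day 1 of ruxolitinib and from -1.31 to 0.14 for vehicle groups against untreated mice. Low counts of Cdh5, Thbd and Eng in the shallow lanes limit what these data can detect.

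Same-numbered drug and vehicle mice correlated over genes with r from -0.35 to 0.30, and 4 of 12 pairs were over 0.1, so that the replicate numbers were not taken as pairs. With the replicate block Eng over the 3 days turned to 0.034 (venetoclax) and 0.024 (ruxolitinib) and Icam1 on day 1 of ruxolitinib to -0.057, and no count of members called changed.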
